A study of Mus musculus with 12 samples.

Results

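The Foxp3 locus was examined as a target of the protein it encodes, in FoxP3 ChIP-seq peak lists from regulatory T (Treg) cells with substituted or wild-type FoxP3. The locus was taken as the peaks whose summit lay on chromosome X between 7100000 and 7200000 in mm9 coordinates, a span of 100 kb around Foxp3 (RefSeq gene 20371) defined by position, at a locus chosen with earlier results of these data known. It held 22 peaks in the 6 ChIP libraries, which joined into 10 regions of the 24765 in all lists. They are called regions A to J in order of position. The A384T group had 3 libraries from mice carrying FoxP3 with the substitution A384T, and the WT group had 3 from mice with wild-type FoxP3. Both groups were C57BL/6J and carried a human CD2 reporter with FoxP3, by which freshly isolated, untreated CD4+ Treg cells of lymph nodes and spleen were sorted on magnets. An affinity-purified rabbit antibody to FoxP3 made by the submitters was used, and peaks were called in each library alone against 1 control library. The ages and the sex of the mice are not in the labels. The labels say that reactions were prepared in triplicate but not from how many mice, so the p-values below reflect the spread among these libraries alone, which may be technical.

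FoxP3 is the forkhead transcription factor that specifies the Treg lineage and keeps its expression programme, and its gene lies on the X chromosome. Transcription of Foxp3 in mice is known to be controlled by its promoter, by conserved noncoding sequences in its introns and by an enhancer upstream of it, and FoxP3 protein is known to bind its own gene and to help maintain its expression. A384T lies in the forkhead domain, which contacts DNA, and is known from patients with IPEX, the autoimmune syndrome caused by FOXP3 mutations. In RefSeq for GRCm38.p6 the order of genes around it is Ppp1r3f, a regulatory subunit of protein phosphatase, Flicr, a long noncoding RNA known to modulate Foxp3 in mouse Treg cells, Foxp3 itself, Ccdc22, a subunit of an endosomal trafficking complex, and Cacna1f, a retinal calcium channel. No mm9 annotation was used here, so the regions are not assigned to the promoter, to an intron, to the upstream enhancer or to any of these genes.

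The promoter is shown because it is the textbook element of the locus that a forkhead factor could read directly. RefSeq gives Foxp3 a pair of transcript starts in the GRCm38.p6 table, both on the plus strand. The 250 bases before the first start are printed 5′ to 3′, with a forkhead motif match in capitals.
Foxp3 start 1: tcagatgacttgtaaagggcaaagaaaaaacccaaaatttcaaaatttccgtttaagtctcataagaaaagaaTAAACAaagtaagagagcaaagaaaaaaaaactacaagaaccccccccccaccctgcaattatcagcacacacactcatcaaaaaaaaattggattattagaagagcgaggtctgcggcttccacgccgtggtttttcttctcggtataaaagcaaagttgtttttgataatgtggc
The motif searched was TAAACA, the core that forkhead factors share, on both strands. This sequence held 1 match, which began 177 bases before the start, and the 250 bases before the second start held 0 matches. Of 32851 promoters of the same length, 12.0% held at least 1 match. It describes letters and not a bound site, and the mm9 peaks below were not placed on this sequence.

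FoxP3 peaks were found at the Foxp3 locus in 5 of the 6 libraries, and regions D and H were the ones that recurred. Regions D and H had a peak in A384T replicates 1 and 2 and in WT replicates 1, 2 and 3, a pattern of 2.15% of all regions. Region J had a peak in A384T replicates 1 and 2 and in WT replicate 1, and regions C and F had one in A384T replicate 1 and WT replicate 1. The other 5 regions, A, B, E, G and I, had a peak in WT replicate 1 alone. A384T replicate 3 had no peak in the window, so no region of the locus belonged to the 3.88% of all regions with a peak in all 6 libraries. Every one of the 10 regions had a peak in WT replicate 1, which is the longest list of the series, and 5 of the 10 had a peak in both genotypes, against 56.0% of all regions. Regions A to I lay within 21.2 kb, region J followed after a gap of 31.5 kb, and the first 42.6 kb of the window held no peak in any library.

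**Figure D1:**
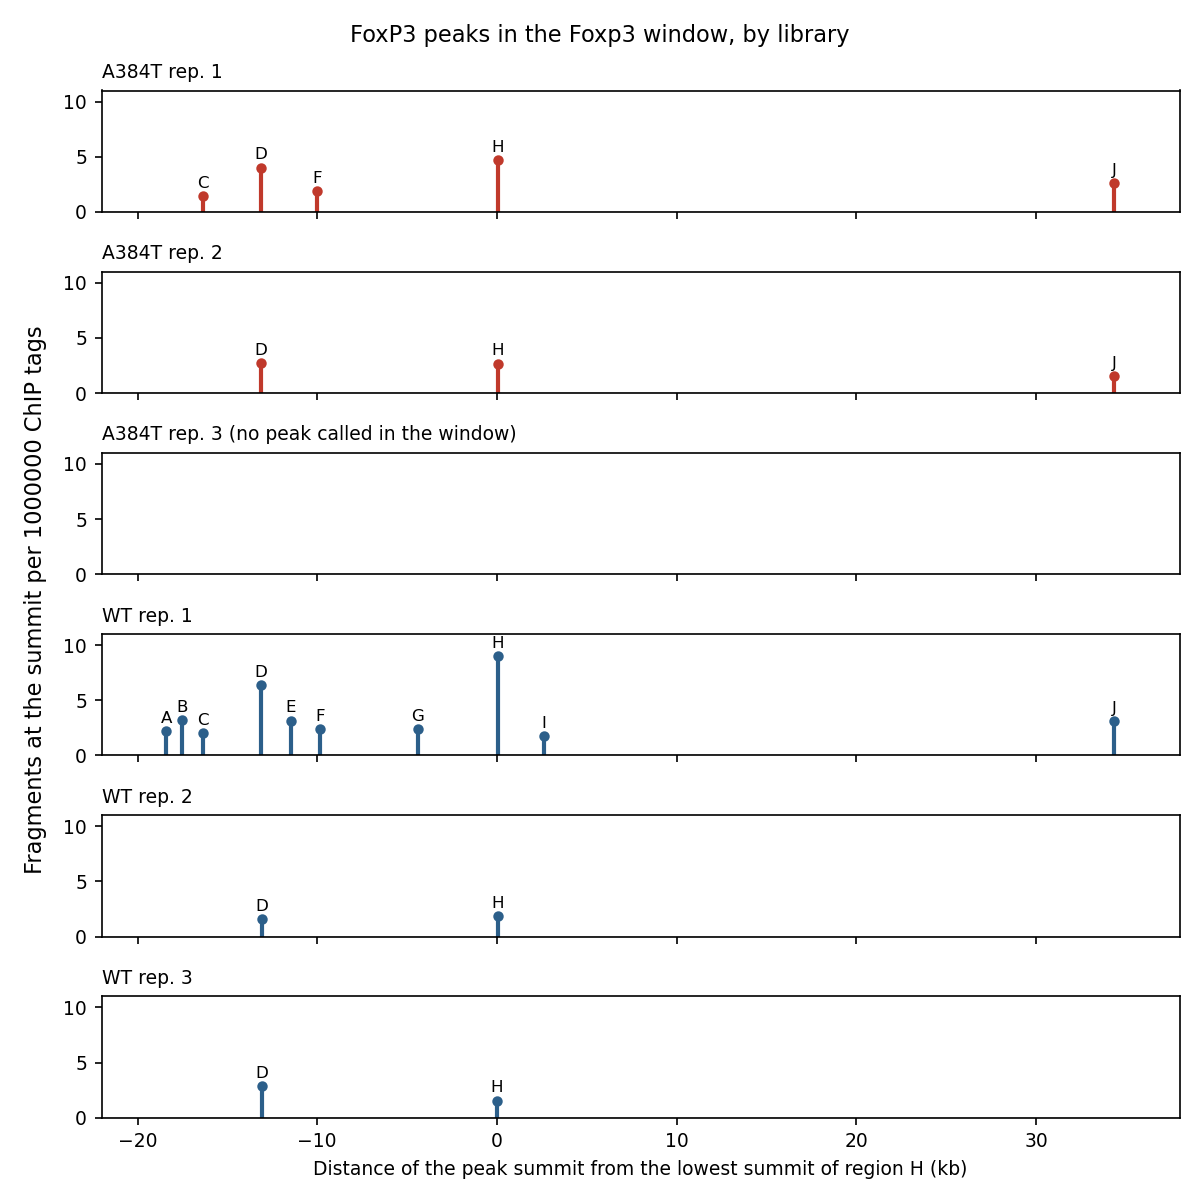
Peaks in the 100 kb window, 1 panel per library, with A384T above WT; the horizontal axis gives the distance of each summit from the lowest summit of region H in kb and the vertical axis the fragments at the summit per 1000000 ChIP tags. Regions D and H stand in 5 panels and reach their highest values, 6.39 and 9.02, in WT replicate 1, and the A384T replicate 3 panel is empty.

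The libraries behind these peaks held 18255500 to 24493840 unique ChIP tags in A384T and 17520951 to 25386770 in WT. Their lists differed far more, with 18147, 6657 and 2050 peaks in A384T replicates 1, 2 and 3 and 20723, 1746 and 3905 in WT replicates 1, 2 and 3. The replicate 1 libraries of both genotypes had 51 bp tags and the others 49 bp tags. A rank below is therefore a place in a library's own list, and strength is given as the number of fragments covering the summit, also per 1000000 unique ChIP tags. The median strength over the regions with a peak in all 6 libraries was 6.35, 4.02 and 1.92 per 1000000 in A384T replicates 1, 2 and 3. It was 8.22, 2.17 and 2.80 in WT replicates 1, 2 and 3, so values per 1000000 differ between libraries at other regions too. How far this strength also follows the efficiency of each immunoprecipitation was not tested.

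Region H, on chromosome X from 7160987 to 7161469 (mm9, 483 bp), was the strongest of the window by fragments in 3 of the 5 libraries with peaks. Its summit was covered by 86 and 60 fragments in A384T replicates 1 and 2, or 4.71 and 2.68 per 1000000 ChIP tags. In WT replicates 1, 2 and 3 it was covered by 158, 47 and 34 fragments, or 9.02, 1.85 and 1.56 per 1000000. Both A384T values thus lay between the highest WT value and the other two. The authors' fold enrichment over control was 34.4 and 22.8 in A384T replicates 1 and 2, and 64.3, 8.47 and 13.8 in WT replicates 1, 2 and 3. By -log10 q it ranked 1515 of 18147 and 1092 of 6657 in A384T replicates 1 and 2. Its WT ranks were 169 of 20723, 1106 of 1746 and 1623 of 3905, so it was nearest the top of a list in WT replicate 1. Its peaks were 391 and 255 bp wide in A384T replicates 1 and 2 and 483, 251 and 278 bp wide in WT replicates 1, 2 and 3. Relative to the median width of each library's list this was 1.48 and 1.19 in A384T and 1.85, 1.32 and 1.32 in WT.

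Region D, from 7147738 to 7148311 (574 bp), lay 12.7 kb to the lower-coordinate side of region H and was of similar strength. It had 73 and 61 fragments, or 4.00 and 2.72 per 1000000, in A384T replicates 1 and 2, against 112, 40 and 62 fragments, or 6.39, 1.58 and 2.85 per 1000000, in WT replicates 1, 2 and 3. Among the libraries with a peak, the groups overlapped here as well. The fold enrichment was 21.8 and 19.6 in A384T replicates 1 and 2 and 45.4, 6.03 and 19.7 in WT replicates 1, 2 and 3. Region D ranked 3298 of 18147 and 1274 of 6657 in A384T replicates 1 and 2, and 735 of 20723, 1646 of 1746 and 410 of 3905 in WT replicates 1, 2 and 3. By -log10 q it was near the end of the WT replicate 2 list and near the top of the WT replicate 3 list. Peak widths were 254 and 315 bp in A384T replicates 1 and 2 and 574, 212 and 233 bp in WT replicates 1, 2 and 3. Relative to the median width of each library's list they were 0.962 and 1.47 in A384T and 2.20, 1.12 and 1.10 in WT.

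Inside each region the peak summits of the 5 libraries with a peak lay within 58 bp of one another. The 5 summits of region D spanned 45 bp, from 7148064 to 7148109, and those of region H spanned 58 bp, from 7161188 to 7161246. Over the 1494 regions that had a peak in the same 5 libraries the median span was 52 bp. Regions D and H were therefore about as precise as other recurrent regions.

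The low ranks of WT replicate 2 came with a higher control background at both summits. The background implied by the authors' fold was 5.0 fragments at region D and 4.0 at region H in that library, where the median of its list was 3.0. In all, 16.0% of its 1746 peaks had a background as high as region D and 28.4% one as high as region H. In the other libraries with a peak the background at region D was 2.39 and 2.0 in A384T replicates 1 and 2 and 1.49 and 2.20 in WT replicates 1 and 3. At region H it was 1.53 in both A384T libraries and 1.47 and 1.54 in WT replicates 1 and 3, at or close to the lowest value that the caller allows (1.41 to 1.54 in these 4 libraries). By pileup, which does not use the control, region D was at percentile 32.4 and region H at percentile 52.0 of the WT replicate 2 list, against 5.76 and 36.4 by -log10 q. Whether the background set these ranks was not tested.

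In the libraries with a peak at both regions, the balance of the pair did not separate the genotypes. A384T replicate 3 had no peak at either region, so it has no value here. The same holds for the comparisons of the strength and rank of regions D and H below. These comparisons cannot show a difference between genotypes that rests on the missing peaks of that library. Region H had 1.18 and 0.984 times the fragments of region D in A384T replicates 1 and 2, and 1.41, 1.18 and 0.548 times in WT replicates 1, 2 and 3. On the log2 scale the ratio averaged 0.11 ± 0.18 (SD, n = 2) in A384T and -0.05 ± 0.72 (SD, n = 3) in WT (two-sided exact permutation test, p = 0.9, where 2 against 3 allows no p below 0.1). The WT spread rested on replicate 3, and without it the difference in log2 ratio was -0.26 in place of 0.15.

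To set the 5 libraries on a common footing, the fragments at each summit were divided by the library's own median over the 962 regions present in all 6 libraries. Region D stood at log2 values of -0.67 and -0.56 in A384T replicates 1 and 2 and of -0.36, -0.46 and 0.02 in WT replicates 1, 2 and 3. Both A384T values were below all WT values, a difference in mean of -0.35 (two-sided exact permutation test, p = 0.2). The same order was seen in 25% of the 1494 five-library regions and the opposite order in 11%, so it is a common pattern among recurrent regions. The region D difference was -0.20 without WT replicate 3, and also as the mean of the pairs of replicates 1 and 2. With the median over the 1494 five-library regions as divisor, the region D difference was -0.27 (two-sided exact permutation test, p = 0.3). Region H stood at -0.43 and -0.58 in A384T and at 0.13, -0.23 and -0.84 in WT, where the groups overlapped (difference in mean -0.20, two-sided exact permutation test, p = 0.7). Without WT replicate 1 the region H difference was 0.03, and with the five-library divisor it was -0.11 (two-sided exact permutation test, p = 0.7). Between the same-numbered libraries of replicates 1 and 2, taken as pairs, region H was lower in A384T in both pairs, by a mean of -0.46 (exact sign-flip test, p = 0.5, the lowest that 2 pairs can give). Apart from region D in WT replicate 3 and region H in WT replicate 1, both regions were below the median of the shared regions.

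**Figure D2:**
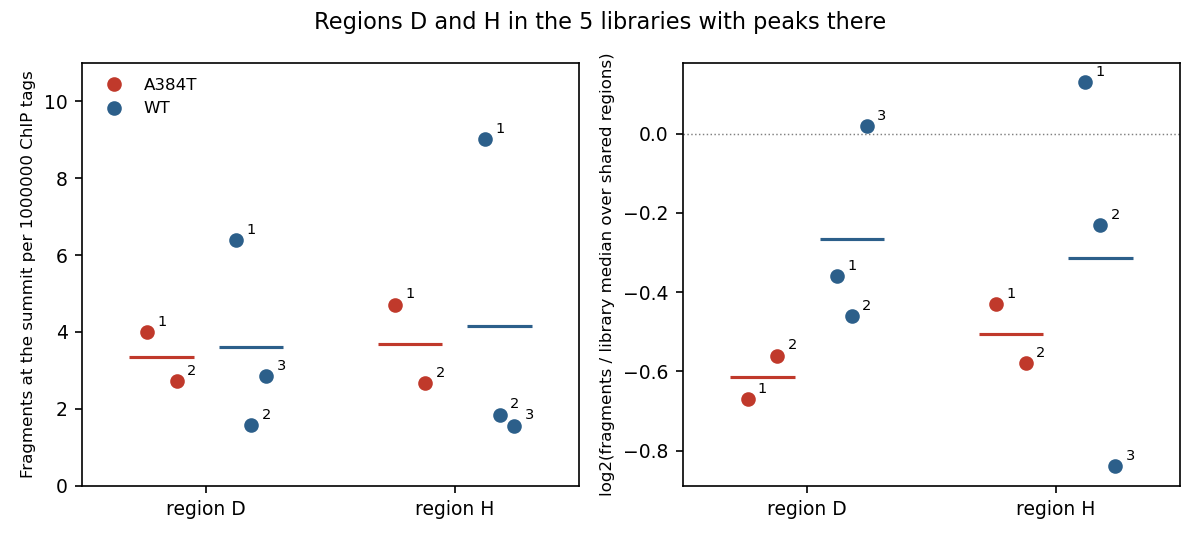
Regions D and H in the 5 libraries with peaks there, A384T left of WT, with replicate numbers beside the points and a line at each mean. The left panel gives fragments at the summit per 1000000 ChIP tags and the right panel the log2 of fragments over the library's median in the 962 shared regions; both A384T points of region D lie below its WT points on the right, and those of region H do not.

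Ranked by -log10 q among the 1494 five-library regions, neither region differed between genotypes beyond the spread of the 5 libraries with a peak. Region D was at percentiles 33.8 and 43.8 in A384T replicates 1 and 2 and 58.0, 3.98 and 74.5 in WT replicates 1, 2 and 3. The difference was -6.70 points (two-sided exact permutation test, p = 0.8, Benjamini-Hochberg adjusted p = 0.965 over 1494 regions). Region H was at percentiles 57.6 and 49 in A384T and 88.9, 31.4 and 26.3 in WT, a difference of 4.47 points (two-sided exact permutation test, p = 1, adjusted p = 1). Neither region was ordered by genotype, where 14.6% of the 1494 regions were lower and 15.5% higher in both A384T libraries than in every WT library. A384T replicates 1 and 2 spanned 10.1 points for region D and 8.57 for region H, and the 3 WT libraries spanned 70.5 and 62.6. These spans are not on a par, since A384T replicate 3 had no peak at either region and is not counted. Among the 5 libraries with a peak, leaving out WT replicate 3 turned the difference to 8.50 for region D and -6.44 for region H, and leaving out WT replicate 2 turned that of region H to -2.05. Over the pairs of replicates 1 and 2 both differences changed sign, to 7.81 points for region D and -6.81 for region H.

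Region J, from 7195349 to 7195660 (312 bp), was the only one with peaks in more A384T than WT libraries. Its summit had 48 and 35 fragments in A384T replicates 1 and 2 and 54 in WT replicate 1, or 2.63, 1.56 and 3.08 per 1000000. The fold was 14.9 and 13.5 in A384T and 22.9 in WT, and the 3 summits spanned 28 bp. The same 3 libraries and no other held a peak in 9.69% of all regions, so the pattern is not rare. These 3 lists are also the longest of the series.

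Regions C and F had weak peaks in the replicate 1 libraries alone, a pattern shared by 29.3% of all regions. Region C, from 7144704 to 7144982, had 26 fragments in A384T replicate 1 and 35 in WT replicate 1. Region F, from 7151081 to 7151441, had 34 fragments in A384T replicate 1 and 42 in WT replicate 1. In A384T replicate 1 both were near the end of the list, at ranks 17899 and 16584 of 18147. In WT replicate 1 they were in its middle, at ranks 11898 and 10994 of 20723. The summits of region F lay 160 bp apart, the widest disagreement of the window.

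The 5 regions with a peak in WT replicate 1 alone were moderate peaks of that list. Region A lay from 7142637 to 7142873, region B from 7143354 to 7143855, region E from 7149566 to 7149830, region G from 7156580 to 7156938 and region I from 7163705 to 7163878. They had 39, 56, 55, 42 and 31 fragments for regions A, B, E, G and I, with folds of 12.9 to 23.1. Region B, the strongest, ranked 4447 of 20723, and region I, the weakest, ranked 13177. A peak in WT replicate 1 and no other library was seen in 25.6% of all regions, and in 31.1% of the regions of that library. With 5 of its 10 regions in this class, the window was above both shares, but a region missing from a list only had no peak past the cutoff.

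The number of peaks in the window did not differ between genotypes beyond the spread of the libraries. There were 5, 3 and 0 in A384T replicates 1, 2 and 3 and 10, 2 and 2 in WT replicates 1, 2 and 3. The means were 2.67 ± 2.52 in A384T and 4.67 ± 4.62 in WT (SD, n = 3 each; two-sided exact permutation test, p = 0.7, where 3 against 3 allows no p below 0.1). The difference of -2 became 0.667 without WT replicate 1, and within the 49 bp libraries it was -0.5. The peaks covered 1443, 716 and 0 bp in A384T replicates 1, 2 and 3 and 3508, 463 and 511 bp in WT replicates 1, 2 and 3, with the same p of 0.7 in the exact permutation test. Mean widths were 289 and 239 bp in A384T replicates 1 and 2 and 351, 232 and 256 bp in WT replicates 1, 2 and 3. The median widths of the whole lists were 264 and 214 bp and 261, 190 and 211 bp in the same libraries.

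Set against the length of each list, the window held a smaller share of the peaks in every A384T library than in any WT library. It held 0.276, 0.451 and 0 of every 1000 peaks in A384T replicates 1, 2 and 3, and 0.483, 1.15 and 0.512 in WT replicates 1, 2 and 3. The means were 0.242 ± 0.227 in A384T and 0.713 ± 0.374 in WT (SD, n = 3 each), a difference of -0.471 with p = 0.1 in the two-sided exact permutation test, the lowest that 3 against 3 can give. Only a window with a peak in every WT library could show this order. Of the 1032 such windows of 100 kb, 48 (4.65%) did. The same 48 are 0.609% of the 7888 windows with a peak in any library, most of which could not show it. The margin was narrow, since A384T replicate 2 at 0.451 lay just under WT replicate 1 at 0.483. Within the 49 bp libraries the difference was -0.603 (two-sided exact permutation test, p = 0.333, which is the lowest that 2 against 2 can give), and without WT replicate 2, whose list is the shortest, it was -0.255. With only peaks of a fold of at least 10 the groups overlapped, at 0.2498, 0.674 and 0 in A384T replicates 1, 2 and 3 and 0.758, 0 and 0.823 in WT replicates 1, 2 and 3, with a difference of -0.219 (two-sided exact permutation test, p = 0.6). In lists cut to the length of the shortest the difference was -0.573 (two-sided exact permutation test, p = 0.4), with A384T replicate 2 level with the WT libraries.

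With each list reduced to its 1746 strongest peaks by -log10 q, only regions D and H were left. Region H alone remained in A384T replicate 1, both remained in A384T replicate 2, none in A384T replicate 3, and both in WT replicates 1, 2 and 3. The counts were 1, 2 and 0 in A384T and 2, 2 and 2 in WT (difference -1, two-sided exact permutation test, p = 0.4). In these equal lists the best peak of the window stood at percentile 13.2 in A384T replicate 1 and 37.4 in A384T replicate 2, with 0 assigned to A384T replicate 3. It stood at percentile 90.3, 36.4 and 76.5 in WT replicates 1, 2 and 3. The means were 16.9 ± 18.98 in A384T and 67.8 ± 28.0 in WT (SD, n = 3 each; two-sided exact permutation test, p = 0.2), and A384T replicate 2 lay above WT replicate 2. This order depended on the ranking. With lists cut and ranked by pileup, no A384T library kept a window peak and each was assigned 0. The WT percentiles were 70.7, 52.0 and 65.6 in replicates 1, 2 and 3, a difference of -62.8 (two-sided exact permutation test, p = 0.1). A384T replicate 2 missed the cut at 1746 narrowly, with region D at pileup rank 1789 and region H at 1861 of 6657. The assigned 0 is thus not an absence of peaks in A384T replicates 1 and 2. By fold the best peak stood at 73.2, 69.7 and 0 in A384T replicates 1, 2 and 3 and 98.0, 21.3 and 80.7 in WT replicates 1, 2 and 3, a difference of -19.1 (two-sided exact permutation test, p = 0.5).

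**Figure D3:**
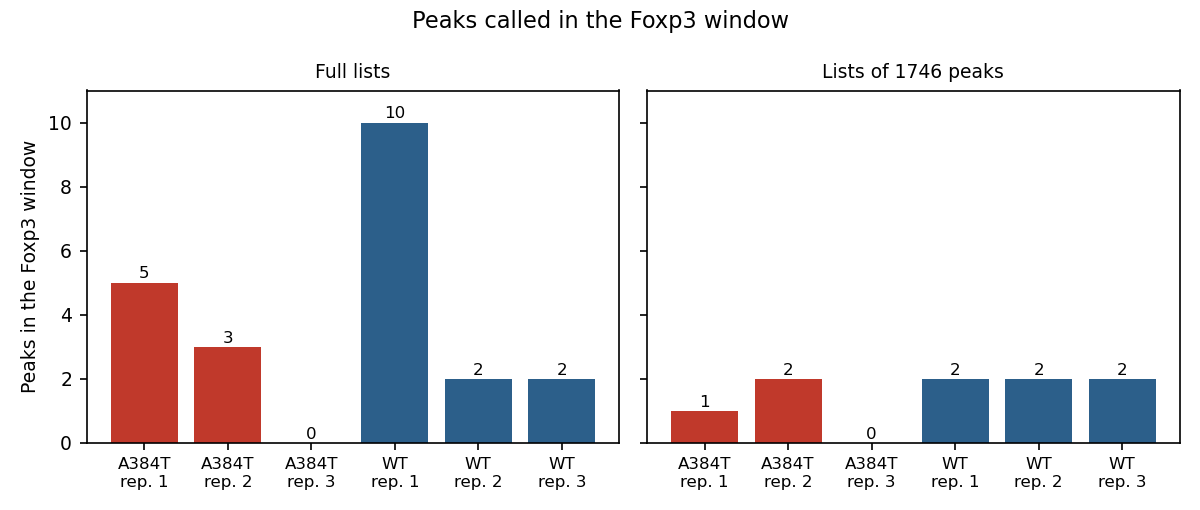
Number of peaks in the Foxp3 window per library in the full lists (left) and in lists of the 1746 strongest peaks by -log10 q (right), A384T left of WT. The full lists gave 5, 3 and 0 in A384T and 10, 2 and 2 in WT, and the equal lists 1, 2 and 0 in A384T and 2 in each WT library.

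The absence of regions D and H from A384T replicate 3 was shared with other regions of like strength, although most of these had a peak there. Of the 1494 regions with a peak in the 5 other libraries, 532 (35.6%) had none in A384T replicate 3. When the 1494 were split into 4 groups of like size by their mean strength in the 5 other libraries, regions D and H fell in the second group from the bottom, where 203 of 373 (54.4%) had a peak in A384T replicate 3. In the weakest group 20.3% had one and in the strongest 97.9%. Of the 1032 windows of 100 kb with a peak in every WT library, 23.7% had none in A384T replicate 3. Why regions D and H had none there was not tested.

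The median shared region had 47 fragments in A384T replicate 3. That median covers only regions with a called peak in this library and leaves out those that had none. On that scale, at the share of the library median that they held elsewhere, region D would have 29.6 to 47.8 fragments there and region H 26.2 to 51.6. These values may therefore be too high, and they cannot tell whether a peak was to be called. The weakest peak of that list had 20 fragments, and 14.0% of its 2050 peaks had at most 30. A region with no called peak may still be bound below the cutoff.

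**Figure D4:**
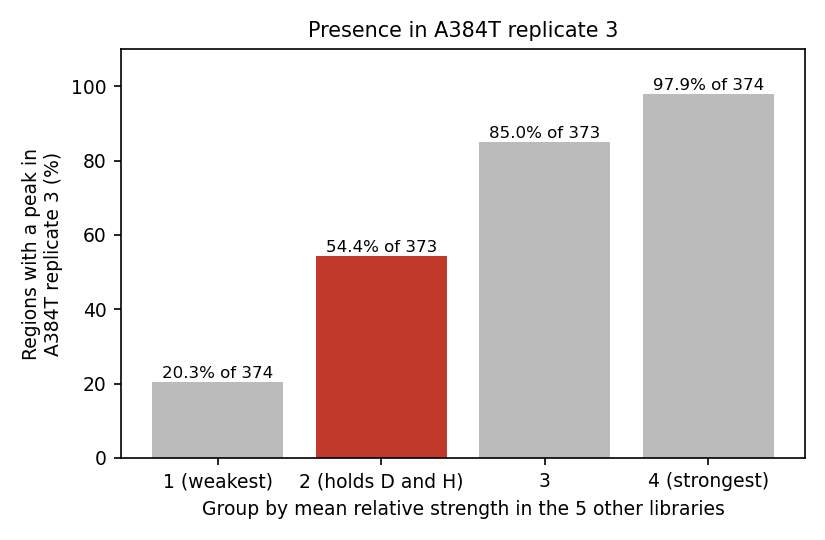
Share of regions with a peak in A384T replicate 3 (vertical axis, percent, from 0) among the 1494 regions with a peak in the 5 other libraries, in 4 groups by their mean relative strength in those 5. The red bar is the group that holds regions D and H, where 54.4% of 373 regions had a peak.

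The nearest region to the window with a peak in all 6 libraries gave a local comparison, chosen after its values were seen. It lay on chromosome X from 7298865 to 7299241, and no gene is assigned to it. It had 82, 51 and 22 fragments in A384T replicates 1, 2 and 3 and 158, 37 and 66 in WT replicates 1, 2 and 3. In A384T replicate 3 it was a weak peak, at rank 1945 of 2050. Region H had 1.05 and 1.18 times its fragments in A384T replicates 1 and 2 and 1.00, 1.27 and 0.515 times in WT replicates 1, 2 and 3. Region D had 0.890 and 1.20 times its fragments in A384T replicates 1 and 2 and 0.709, 1.08 and 0.939 times in WT replicates 1, 2 and 3. In the libraries with a peak at regions D and H, both sets of ratios overlapped between the genotypes.

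In the 5 libraries with a peak there, the window was denser than most of the 7888 windows of 100 kb with a peak in any library, without being at their extreme. As many peaks or more were found in 11.4% of these windows in A384T replicate 1 and in 8.46% in A384T replicate 2. A384T replicate 3 had none in the window, where 19.1% of the windows held at least 1 peak of that library. As many or more were found in 3.74, 4.17 and 8.92% in WT replicates 1, 2 and 3. At least 1 peak was held by 92.4 and 44.0% of the windows in A384T replicates 1 and 2. In WT replicates 1, 2 and 3 it was 87.7, 13.8 and 25.7%. Any window with a peak was thus denser than most in A384T replicate 2 and WT replicates 2 and 3. Among windows with a peak in these 3 libraries, 667 of 3468, 329 of 1086 and 704 of 2027 held as many or more. On chromosome X, 8 of 230 windows held 10 or more regions, this one included. Over all chromosomes, with each region counted in 1 window, 349 of 7885 windows (4.43%) did.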

How the data were processed

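Each of the 6 ChIP libraries had a deposited peak list. Bowtie2, MACS2 and mm9 are named in the submitters' processing notes, and per the file headers peaks were called with MACS 2.1.0.20140616 per library at a q-value cutoff of 1e-10, keeping 1 tag per position and strand. Per the labels, each reaction used about 10000000 cells, 30 min of fixation with 1% formaldehyde and 4 µg of antibody. The deposited values are the pileup (signal) at the summit, the fold enrichment (a ratio to control background), and -log10 p and -log10 q. The larger of ChIP and control was scaled down, per the file headers; this was undone for WT replicate 2 and A384T replicate 2, and in all libraries 100% of the unscaled pileups were whole within 0.02 fragments. The control background was computed as (pileup + 1) / fold - 1, whose lowest value in every list equals the caller's floor.

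Unplaced sequences were left out, and peaks sharing 1 bp or more formed a region. Percentiles run from 0 to 100 within the named set. Genotypes were compared with two-sided exact permutation tests over libraries. The joining of peaks into regions was checked on simulated lists, and the permutation p against that of scipy on a fixed set of values. All regions of the window are named. Same-numbered libraries were taken as pairs from these same data. Over 962 regions their deviations correlated at 0.69, 0.34 and 0.57 for replicates 1, 2 and 3, where the highest other correlation was -0.35, -0.01 and 0.08. For replicate 1, the only libraries with 51 bp tags, pairing cannot be told apart from tag length. The sources give no shared animal or day. Alternatives are listed in the closing section. The window, its regions and the tests were chosen with earlier results of these data known. The planned rank among regions shared by all 6 libraries had no value, since no window region had a peak in all 6, and ranks in 5 libraries, relative strength, the ratio of regions H and D and all their alternatives were chosen after seeing the data. The 6 input libraries were not analysed here as samples. Python 3.11.15, numpy 2.4.6, pandas 2.3.3, scipy 1.17.1 and matplotlib 3.10.9 were used.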

Additional observations from a re-analysis of the deposited data

How the results depend on the processing

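Of 112 alternatives to 10 results, 95 kept the direction, or for a count stayed within 1.5 times it, 11 reversed and 6 moved a count further. No alternative could pass 0.05, since the smallest p was 0.1. The 5 regions with a peak in both genotypes became 3 with -log10 q of at least 20, 3 with a fold of at least 10, 2 with lists reduced to the shortest and 8 with the window widened by 100 kb on each side. Leaving out each library in turn gave 2 to 5 such regions, a difference in peaks of -3.33 to 0.667, in covered length of -1290 to 232.7 bp, in the percentile of region D of -25.0 to 8.50 and of region H of -6.44 to 24.1, in log2 relative strength of region D of -0.45 to -0.20 and of region H of -0.46 to 0.027, and in the log2 ratio of region H to D of -0.26 to 0.42. The reversals of peaks, covered length and region H strength came without WT replicate 1, and that of the ratio without WT replicate 3. Ranking by pileup gave -6.81 for region H. The cause was not tested.

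With same-numbered libraries as a replicate block, the differences in peaks (-2), covered length (-774.3 bp), share per 1000 peaks (-0.471) and best percentile (-50.9) are the same and the exact sign-flip p was 0.5, 0.5, 0.25 and 0.5, where 0.25 is the smallest for 3 pairs. Over the 2 pairs with peaks the block gave 7.81 points for region D, -6.81 for region H, log2 relative strengths of -0.20 for region D and -0.46 for region H, and -0.26 for the log2 ratio. The differences in percentile and in the ratio were reversed by the block. Regions D and H had no rank with a fold of at least 10, and region D none with -log10 q of at least 20, as WT replicate 2 then lost its peak. Lists rather than reads limit the depth: a region under the cutoff has no value.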
